A study of Mus musculus with 6 samples.

Results

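The 10 genes described here encode parts of autophagy and lysosomal degradation: Ulk1, Becn1, Atg7, Map1lc3a, Map1lc3b, Gabarapl1, Sqstm1, Bnip3, Tfeb and Ctsl. They were chosen by name, through non-control array probes whose RefSeq accession maps to one of these symbols, which gave 13 probes of 55681 on the array. All 10 were among the 20900 genes that could be tested, and each was well above background on all 6 arrays. Total RNA of the gastrocnemius, the large fast calf muscle, was measured in male C57BL/6J mice, an inbred strain, on single-colour Agilent arrays with 1 mouse each. The young group was 3 mice at 13 weeks of age and the aged group 3 mice at 26 months. The labels give no treatment or genetic change for either group, and the question was how gene expression in this muscle differs with age. All 8 skeletal muscle fibre markers examined, such as the actin Acta1, the creatine kinase Ckm and the fast myosin Myh4, were well above background on every array.

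Autophagy encloses cytoplasm, protein aggregates or mitochondria in a double membrane, the autophagosome, which then fuses with a lysosome, where acid hydrolases break the contents down. A kinase complex around ULK1 starts the process, a lipid kinase complex with Beclin 1 marks the membrane, and ubiquitin-like ATG8 proteins (LC3 and GABARAP) are attached to its lipids and hold the cargo receptors. In skeletal muscle this pathway clears damaged mitochondria and contributes to protein loss during fasting and denervation.

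No difference between aged and young mice passed the test in any of the 10 genes. Sqstm1, the p62 cargo receptor, had the highest positive difference at 0.47 on the log2 scale, and Ulk1 the lowest at -0.40. Tfeb, a transcription factor for lysosomal genes, was the only one of the 10 whose young and aged values did not overlap, and it was lower in all 3 aged mice. Aged mouse 1 had the highest aged value in 9 of the 10 genes. Values below are log2 signals relative to the 75th percentile of the same array, differences are aged minus young on that log2 scale, and adjusted p-values are from limma with Benjamini-Hochberg adjustment over all 20900 genes.

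Promoter sequence from RefSeq (GRCm38.p6) was examined for 8 of the 10 genes, in 10 windows of 250 bases before to 50 after each annotated start. The promoters of Map1lc3a and Becn1 were not analysed here. TFEB and its relatives bind E-boxes, and in lysosomal genes a longer palindrome around the E-box, and FoxO factors bind a forkhead motif. The letters CACGTG (E-box) were found in 3 of the 10 windows, those of Bnip3, Atg7 and Ctsl, against 9.61% of the promoters of genes tested and 7.15% of all 32851 promoters. The stretches that hold them are shown for comparison with the values of these genes and of Tfeb, in the direction of the gene, 5′ to 3′, with the E-box in capitals.
Bnip3, chr7:138909597-138909626, minus strand: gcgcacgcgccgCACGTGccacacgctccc
Atg7, chr6:114670952-114670981, plus strand: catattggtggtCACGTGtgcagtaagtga
Ctsl, chr13:64370739-64370768, minus strand: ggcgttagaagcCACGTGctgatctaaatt
The E-box began at position -108 from the annotated start in Bnip3, -132 in Atg7 and -236 in Ctsl.

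The longer palindrome, the E-box with GT directly before it and AC directly after it, was in none of the 10 windows. It was in 4 of the 160 promoters (2.5%) available for 132 of the 168 autophagy and lysosome genes described further on. The share was 0.606% in the promoters of genes tested and 0.326% in all promoters. Those 4 genes were Vps16 and Vps33a of the tethering complex that brings autophagosomes to lysosomes, and Cln3 and Igf2r of the lysosomal membrane and its delivery routes. Their stretches are shown with the E-box at the centre of the palindrome in capitals.
Vps16, chr2:130424290-130424319, plus strand: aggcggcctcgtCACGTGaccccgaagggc
Vps33a, chr5:123573010-123573039, minus strand: tgaacgtcccgtCACGTGacgcaggcggcg
Cln3, chr7:126583340-126583369, minus strand: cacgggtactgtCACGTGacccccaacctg
Igf2r, chr17:12769696-12769725, minus strand: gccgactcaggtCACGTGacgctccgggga
Their differences between aged and young mice were 0.19 for Vps16, 0.13 for Vps33a, -0.02 for Cln3 and 0.10 for Igf2r, and the groups overlapped in each of the 4. The E-box was in 33 of these 160 promoters (20.6%). The forkhead motif GTAAACA, searched with its reverse complement TGTTTAC, was in none of the 10 windows and in none of the 160, against 2.64% of the promoters of genes tested and 3.65% of all promoters. E-box and palindrome read the same on both strands. A match is a description of the letters in these windows.

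Across all genes, 53 of 20900 (0.254%) passed an adjusted p of 0.05, 41 higher in aged mice (0.196%) and 12 lower (0.0574%). Unadjusted, 3016 genes (14.4%) had a p under 0.05 (6.07% higher and 8.36% lower), and in 4559 (21.8%) the 3 young and 3 aged values did not overlap (7.92% higher and 13.9% lower). Among the 10 genes, 0 passed the adjusted threshold, 0 had an unadjusted p under 0.05 by limma, and 1 did not overlap. Their limma adjusted p-values ran from 0.453 to 0.975, and the 95% interval of the difference included 0 in all 10. For groups of 3, the smallest two-sided p of the exact permutation test is 0.1.

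**Figure D1:**
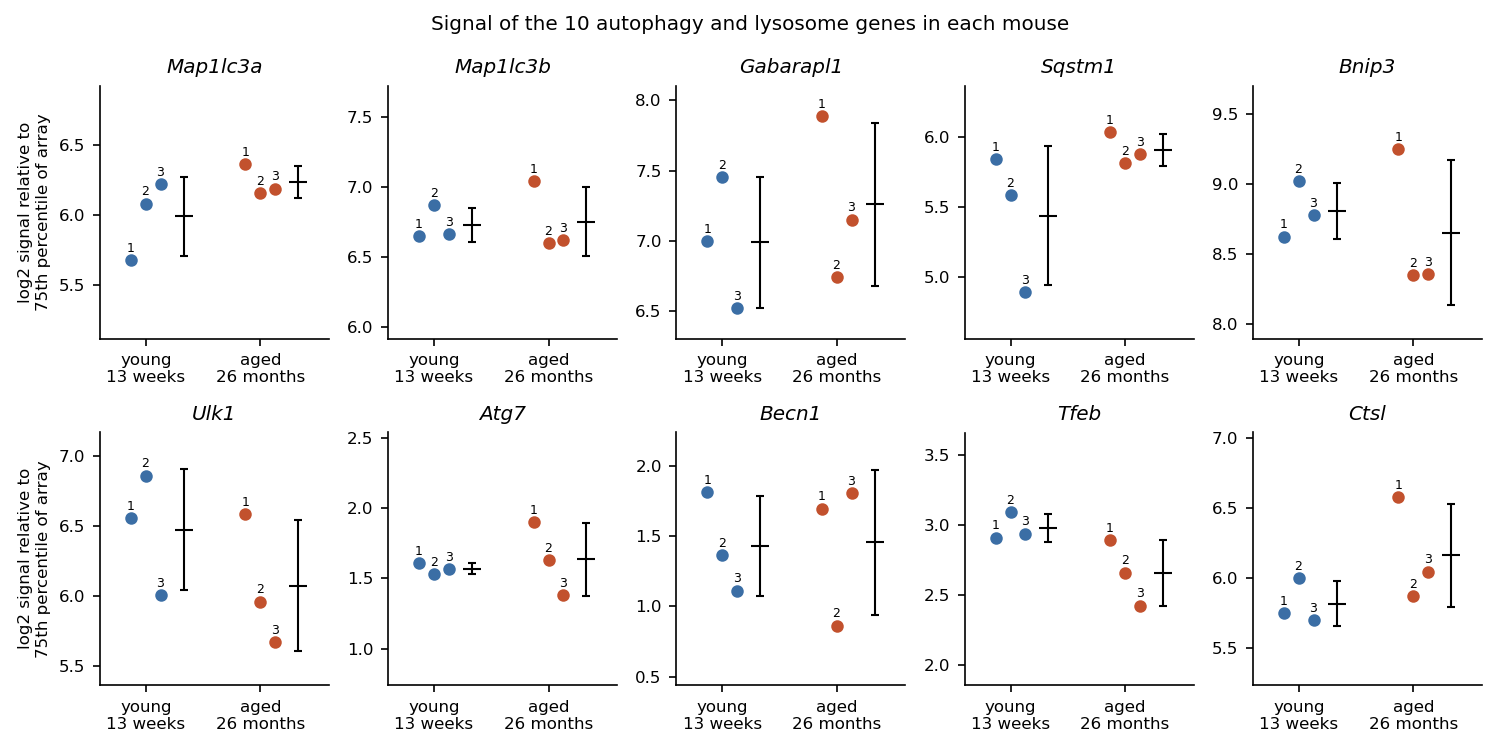
Log2 signal of each gene relative to the 75th percentile of the array (y axis, scale set per gene) in the 3 young and 3 aged mice (x axis). Points are mice, numbered as in the text, and the bar beside them is the mean ± SD. Young and aged values overlap in every gene except Tfeb, where the aged mice lie between 2.43 and 2.89 and the young mice between 2.91 and 3.09.

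The induction genes are taken first. Ulk1 encodes the kinase that starts autophagosome formation when nutrients are scarce. Its signal was 6.55, 6.86 and 6.01 in the young mice and 6.58, 5.96 and 5.67 in the aged mice, listed here and below as mouse 1, mouse 2 and mouse 3 of each group. Aged mice 2 and 3 were below every young mouse, while aged mouse 1 lay within the young range. The difference was -0.40 ± 0.31 (SE, n = 3 per group), with a limma 95% interval from -1.14 to 0.34, an adjusted p of 0.581 and an exact permutation p of 0.3. Without aged mouse 1 it was -0.66, with a limma adjusted p of 0.302.

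Becn1 encodes Beclin 1, the scaffold of the lipid kinase complex that marks the forming membrane. Its signal was 1.82, 1.36 and 1.11 in the young mice and 1.70, 0.86 and 1.81 in the aged mice. Aged mouse 2 had the lowest value of all 6 mice, and the other two aged mice were close to young mouse 1, so the groups overlapped. The difference was 0.03 ± 0.31, with a limma interval from -0.71 to 0.76, an adjusted p of 0.975 and an exact permutation p of 1. Its sign turned with the mice included, from 0.32 when aged mouse 2 was left out to -0.15 when aged mouse 3 was.

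Atg7 encodes the activating enzyme of the conjugation reactions that attach ATG8 proteins to lipid. Its signal was 1.61, 1.53 and 1.56 in the young mice and 1.90, 1.63 and 1.38 in the aged mice. The young mice lay within 0.08 of each other and the aged mice spanned 0.52, with aged mice 1 and 2 above and aged mouse 3 below all young values. The difference was 0.07 ± 0.18, with a limma interval from -0.36 to 0.50 and an adjusted p of 0.880. A second, dimmer Atg7 probe differed by 0.25 in the same direction.

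Among the ATG8 genes, Map1lc3a and Map1lc3b encode LC3A and LC3B, whose lipid-bound form is the usual protein mark of autophagosomes. The Map1lc3a signal was 5.68, 6.08 and 6.22 in the young mice and 6.36, 6.16 and 6.19 in the aged mice. All 3 aged mice were above the young mean, but only aged mouse 1 was above every young mouse. The difference was 0.24 ± 0.19, with a limma interval from -0.22 to 0.70, an adjusted p of 0.587 and an exact permutation p of 0.3. Without young mouse 1, the lowest of the 6, it was 0.09.

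The Map1lc3b signal was 6.65, 6.87 and 6.67 in the young mice and 7.04, 6.60 and 6.62 in the aged mice. Aged mouse 1 was above, and aged mice 2 and 3 were just below, every young mouse. The difference was 0.03 ± 0.19, with a limma interval from -0.42 to 0.47, an adjusted p of 0.957 and an exact permutation p of 1. Without aged mouse 1 it was -0.12.

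Gabarapl1 encodes a GABARAP-type ATG8 protein. Its signal was 6.999, 7.45 and 6.52 in the young mice and 7.89, 6.74 and 7.15 in the aged mice. Both groups spanned about 1 log2 unit (0.93 in young and 1.15 in aged mice), and aged mouse 1 was again the highest of all. The difference was 0.27 ± 0.36, with the widest limma interval of the 10 genes, from -0.58 to 1.12, and an adjusted p of 0.755. Without aged mouse 1 it was -0.04.

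Of the cargo receptors, Sqstm1 encodes p62, which binds ubiquitin-tagged proteins and LC3 and is itself degraded by autophagy. Its signal was 5.85, 5.59 and 4.89 in the young mice and 6.04, 5.81 and 5.88 in the aged mice. The aged mice lay within 0.22 of each other and the young mice spanned 0.95, with young mouse 3 the lowest and young mouse 1 within the aged range. The difference was 0.47 ± 0.26, with a limma interval from -0.16 to 1.09, an adjusted p of 0.457 and an exact permutation p of 0.2. Without young mouse 3 it was 0.19, and without young mouse 1 it was 0.67, so the positive sign remained and the size did not.

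Bnip3 encodes a mitochondrial outer membrane protein that binds LC3 and marks mitochondria for removal. Its brightest probe read 8.62, 9.02 and 8.78 in the young mice and 9.25, 8.35 and 8.36 in the aged mice. Aged mouse 1 was above every young mouse and the other two aged mice were below every young mouse, with 0.90 between the highest and lowest aged value. The difference was -0.16 ± 0.28, with a limma interval from -0.82 to 0.51 and an adjusted p of 0.821. The 3 Bnip3 probes disagreed: the second differed by 0.0003 and the dimmest by 0.37, and the mean of the probes gave 0.07. Without aged mouse 1 the difference at the brightest probe was -0.45, with a limma adjusted p of 0.286.

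Tfeb encodes the transcription factor that moves to the nucleus when mTORC1 is inactive and switches on lysosomal and autophagy genes. Its signal was 2.91, 3.09 and 2.94 in the young mice and 2.89, 2.66 and 2.43 in the aged mice. All aged values were below all young values, and aged mouse 1 was just below young mouse 1. The difference was -0.32 ± 0.18, with a limma interval from -0.75 to 0.10, an adjusted p of 0.453 and an exact permutation p of 0.1, the smallest it can give. Groups that did not overlap and were lower in aged mice made up 13.9% of all genes tested. The difference ran from -0.44 without aged mouse 1 to -0.20 without aged mouse 3.

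Ctsl encodes cathepsin L, a cysteine protease of the lysosome that is known as a gene induced in wasting muscle. Its signal was 5.75, 6.001 and 5.70 in the young mice and 6.58, 5.87 and 6.05 in the aged mice. Aged mice 1 and 3 were above every young mouse, and aged mouse 2 lay below young mouse 2. The difference was 0.35 ± 0.23, with a limma interval from -0.19 to 0.88, an adjusted p of 0.513 and an exact permutation p of 0.2. Without aged mouse 1 it was 0.14.

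**Figure D2:**
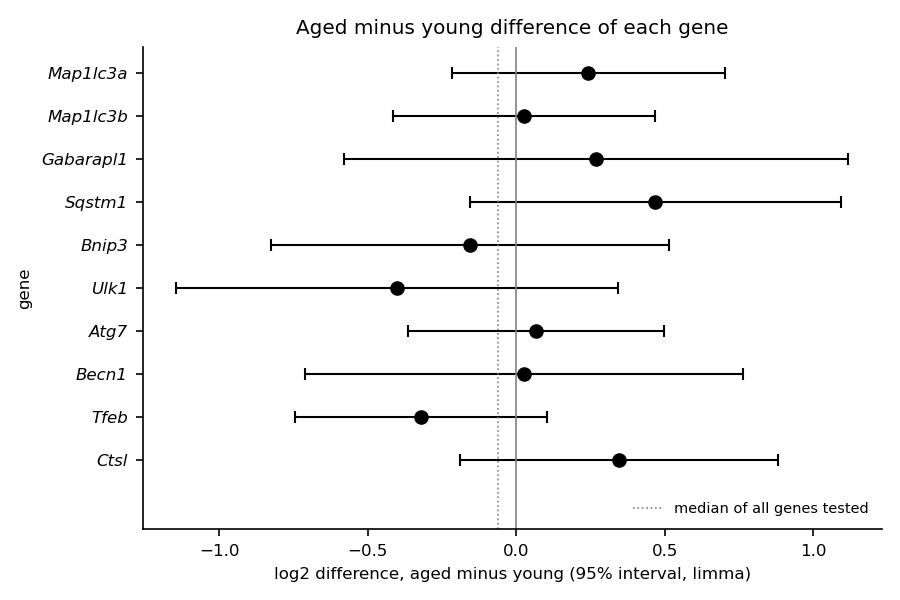
Aged minus young difference of each gene on the log2 scale (x axis), with the limma 95% interval, 3 mice per group. All 10 intervals include 0, and the dotted line is the median of all genes tested (-0.06).

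The mean was higher in aged mice in 7 of the 10 genes and lower in 3 (Ulk1, Bnip3 and Tfeb), against 43.1% higher and 56.9% lower over all genes, and the 7 became 4 when arrays were scaled to their median. The median difference of the 10 was 0.05, beside -0.06 over all genes. Scaling to the array median moved the median of all genes to -0.21. Relative to the median of all genes, 7 of the 10 lay above it. This count cannot differ between these scalings, because each subtracts the same value from every gene of an array. Without aged mouse 1 the count of 7 fell to 3, namely Map1lc3a, Sqstm1 and Ctsl.

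One of the aged mice stood apart from the other two in these genes. Aged mouse 1 was above every young mouse in 7 of the 10 genes and below every young mouse in 1, Tfeb. Aged mouse 2 was above all young mice in 1 gene and below them in 5, and aged mouse 3 in 2 and 5. The median difference from the young mean was 0.35 for aged mouse 1, -0.19 for the second and 0.03 for the third. This pattern was noticed after the values were seen and has no test.

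**Figure D3:**
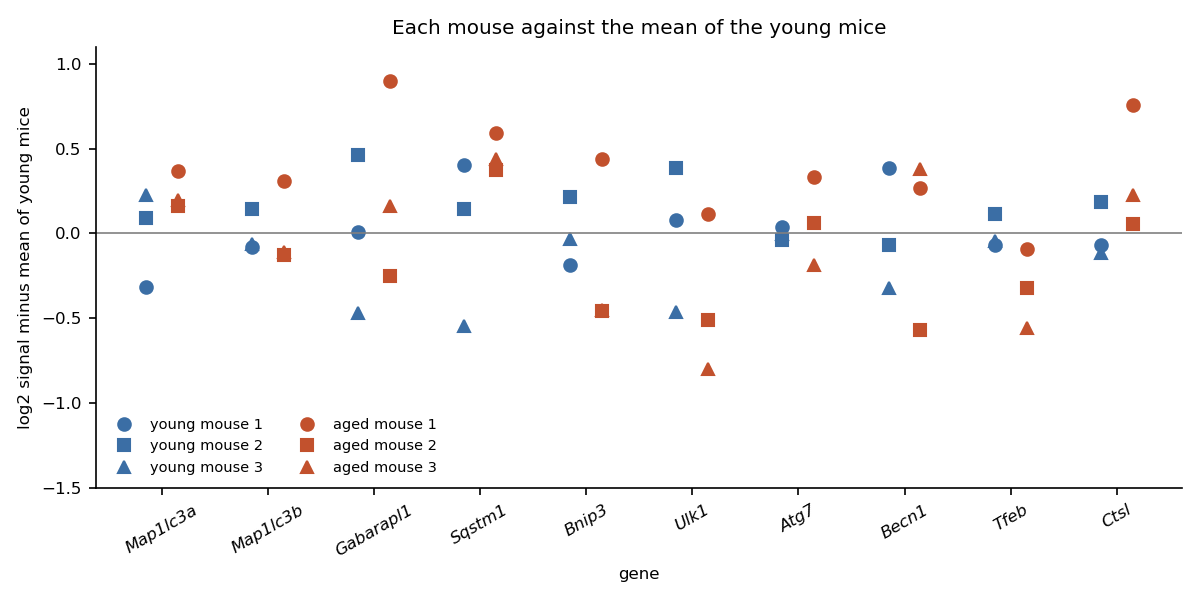
Log2 signal of each mouse minus the mean of the young mice (y axis) for the 10 genes (x axis), with colours for age and shapes for the mouse number. Aged mouse 1 (orange circles) is the highest aged mouse in every gene except Becn1.

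For comparison, aged mouse 1 was the highest aged mouse in 35.9% of all genes tested and in 21.2% of the 2533 genes with a mean log2 signal above 5, a level that 7 of the 10 genes exceed. It was the highest in all 7 of those. Its median difference from the other aged mice was 0.62 in these 7, -0.17 in the 2533 genes, 0.41 in the 10 genes and -0.03 in all genes. In the other 150 autophagy and lysosome genes tested, it was the highest aged mouse in 48.7%, with a median difference of 0.10. Young mouse 2 was the highest young mouse in 6 of the 10 genes, beside 26.0% of all genes tested. Of the 7 brighter genes it was the highest young mouse in 5, beside 17.0% of the 2533 genes. Its median difference from the other young mice was 0.28 in these 7 and -0.08 in the 2533, so a young mouse also stood apart in these genes. The array of aged mouse 1 had 53.8% of probes well above background, beside 48.7% to 50.7% on the other arrays. That array stood in the same row of the slide as the young mice, while aged mice 2 and 3 stood in the other row. Slide row and mouse cannot be told apart here. With the row as a block the age difference is aged mouse 1 minus the young mean: the difference was 0.44 for Bnip3 and 0.11 for Ulk1, both opposite in sign to the values over all mice, 0.76 for Ctsl and 0.90 for Gabarapl1.

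The wider pathway was read from 11 lists of 168 genes that include the 10, of which 160 could be tested. The 8 that were too dim were Atg9b, Atg4a, Tfec, Rragb, Ctse, Ctsg, Cst7 and Atp6v0d2. Of the 150 genes other than the 10, 84 were higher and 66 lower in aged mice, with a median of 0.06, and 0 passed an adjusted p of 0.05 by limma. An unadjusted p under 0.05 was reached by 17 (11.3%, beside 14.4% of all genes), 9 higher and 8 lower, and 25 did not overlap between groups (16.7%, beside 21.8%). These shares were below those of all genes tested. In whole muscle, fewer cells of a type and less RNA per cell cannot be told apart, which holds for every value here.

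**Figure D4:**
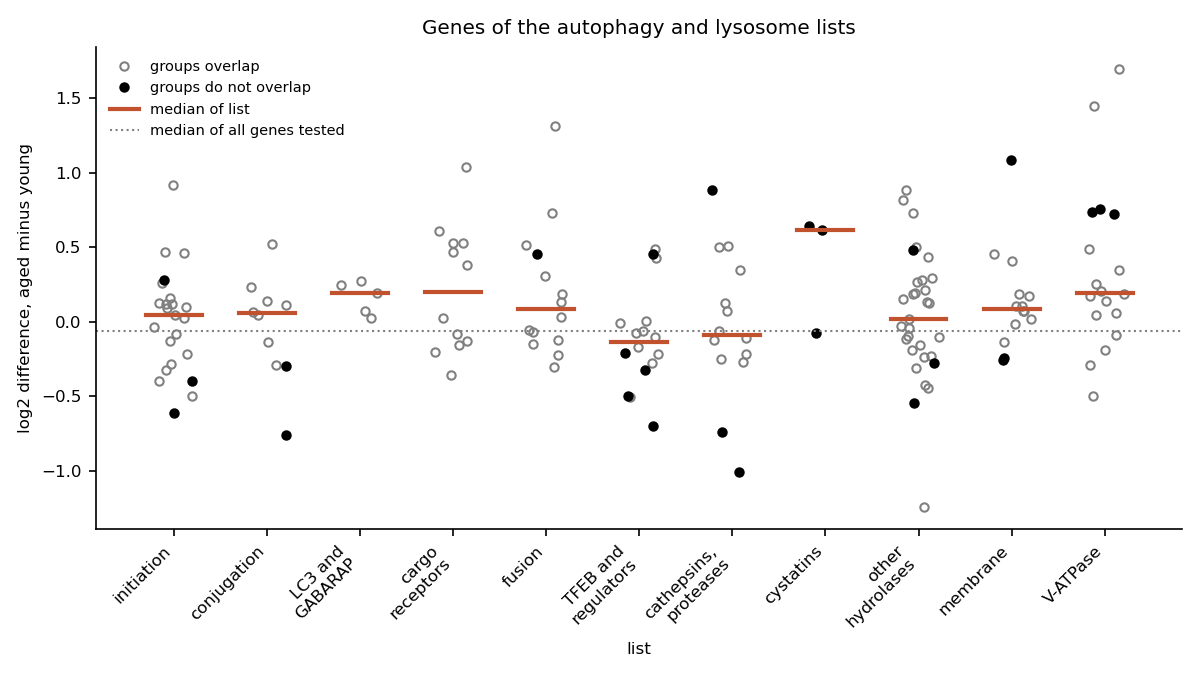
Aged minus young difference on the log2 scale (y axis) of each tested gene in the 11 lists (x axis), 3 mice per group. Filled points are genes whose groups do not overlap, short bars are list medians from -0.14 (TFEB and its regulators) to 0.61 (cystatins, 3 genes), and the dotted line is the median of all genes tested (-0.06).

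In the induction list, 13 of 23 genes were higher and 10 lower, with a median of 0.05. Atg101, a stabilizing subunit of the ULK1 complex, was 5.47, 5.16 and 5.37 in the young mice and 4.74, 4.86 and 4.55 in the aged mice, a difference of -0.61 with a limma adjusted p of 0.205. Ulk2, the close relative of Ulk1, differed by -0.40 (limma adjusted p = 0.337) and by -0.17 at a second probe. All aged values lay below all young ones in Atg101 and, at its brighter probe, in Ulk2. The lipid transfer protein gene Atg2b differed by 0.28 with no overlap.

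In the conjugation list, 6 of 10 genes were higher and 4 lower, with a median of 0.06. Atg3 encodes the enzyme that transfers ATG8 proteins to lipid. Its signal was 2.46, 2.15 and 2.05 in the young mice and 1.45, 1.99 and 0.95 in the aged mice, a difference of -0.76 with a limma adjusted p of 0.309, and of -0.50 without aged mouse 3. Atg10, the corresponding enzyme for ATG12, differed by -0.30 with no overlap at this probe and by -0.04 at a second one.

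All 5 ATG8 genes were higher on average, with a median of 0.19, while 3 of 5 were higher under median scaling and 3 of 5 without aged mouse 1. Gabarap differed by 0.07 and Gabarapl2 by 0.19, and both overlapped. In the cargo receptor list, 7 of 12 genes were higher and 5 lower, with a median of 0.20, which was -0.03 without young mouse 3, and no gene without overlap. Stbd1, which binds glycogen and was singled out after its values were seen, read 5.80, 5.63 and 5.75 in the young mice, 6.92 and 7.14 in aged mice 2 and 3 and 4.96 in aged mouse 1. Its difference was 0.61 (limma adjusted p = 0.636), and without aged mouse 1 it was 1.30 with a limma adjusted p of 0.0400. That fit kept only aged mice 2 and 3, and 199 of 20900 genes passed in it, beside 53 with all mice. Because gene and fit were singled out on these values, that p is no support for a difference. In the fusion list, 8 of 14 genes were higher and 6 lower, with a median of 0.08, which was -0.09 without young mouse 3. Plekhm1, an adaptor between the small GTPase RAB7 and the tethering complex, differed by 0.46 with no overlap (limma adjusted p = 0.273).

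In the list of TFEB, its family and the mTORC1 and calcineurin genes that control it, 4 of 16 genes were higher and 12 lower, with a median of -0.14. The counts of lower genes under other scalings ran from 10 with quantile normalization to 13 with median scaling. In 5 of the 16 (31.2%, beside 21.8% of all genes) the groups did not overlap, 1 higher and 4 lower. Tfe3, a relative of Tfeb, was 2.73, 2.67 and 2.63 in the young mice and 2.51, 1.76 and 1.67 in the aged mice. Its difference was -0.70 with a limma adjusted p of 0.290, but a second Tfe3 probe differed by 0.25 in the opposite direction. Ppp3r1, the regulatory subunit of calcineurin, differed by -0.50 and Rragc, a GTPase that brings mTORC1 to the lysosome, by 0.46, both with no overlap. A second Rragc probe differed by 0.10.

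Among the lysosomal proteases, 6 of 14 genes were higher and 8 lower, with a median of -0.09. Ctsk encodes cathepsin K, a collagen-degrading protease. Its signal was 1.79, 1.81 and 1.90 in the young mice and 0.94, 0.77 and 0.77 in the aged mice. The gap between the groups was several times the spread within either. The difference was -1.01 ± 0.15 (SE, n = 3 per group), and the limma adjusted p of 0.0670 was the lowest of the 160 genes. With normexp background correction the difference was -0.95 and the limma adjusted p 0.0362, the only setting of 17 in which it passed.

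Tpp1, a peptidase that trims the ends of peptides in the lysosome, read 1.53, 1.74 and 1.73 in the young mice and 0.95, 0.99 and 0.84 in the aged mice. All aged values were below all young values, and the difference was -0.74 ± 0.15 (limma adjusted p = 0.141). Lgmn, which encodes the protease legumain that matures cathepsins, read 4.08, 4.20 and 4.20 in the young mice and 4.76, 4.70 and 5.68 in the aged mice, a difference of 0.89 (limma adjusted p = 0.250), which was 0.57 without aged mouse 3. These 3 of the 14 proteases (21.4%, beside 21.8% of all genes) were the ones without overlap.

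**Figure D5:**
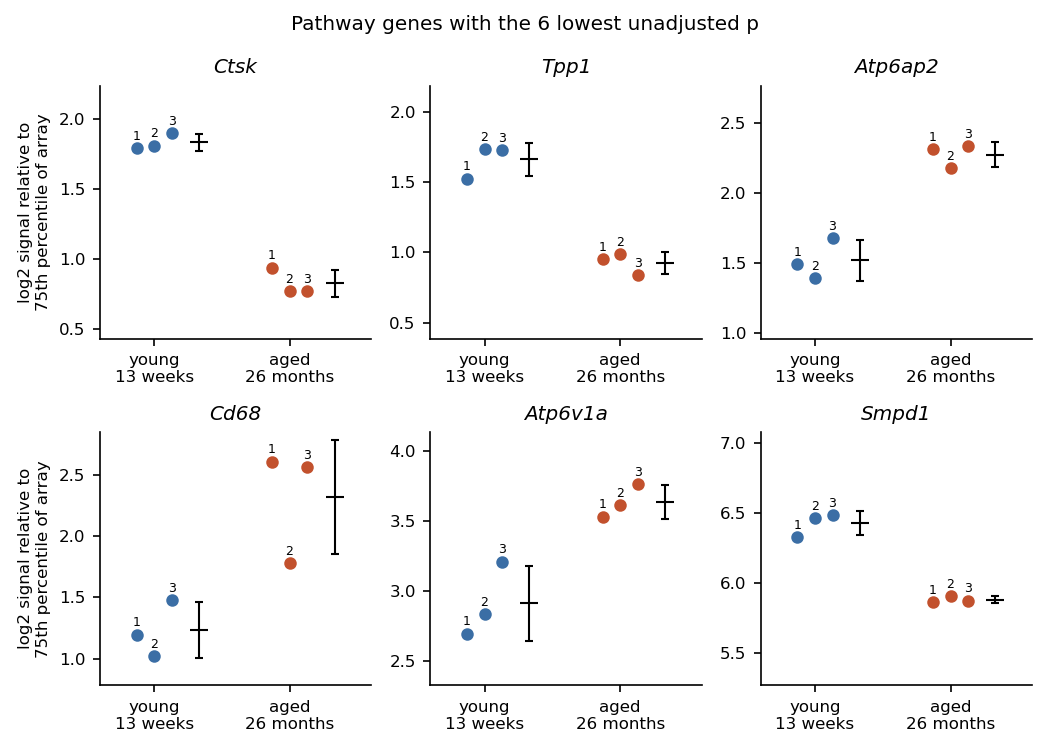
Log2 signal relative to the 75th percentile of the array (y axis, scale set per gene) in the 3 young and 3 aged mice (x axis) for the 6 pathway genes with the lowest unadjusted limma p, which were picked by that p. Points are numbered mice and bars are mean ± SD, and Ctsk, Tpp1 and Smpd1 are lower and Atp6ap2, Cd68 and Atp6v1a higher in all 3 aged mice.

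The cystatins inhibit cysteine cathepsins, and 3 of the 4 listed could be tested. Cstb was 2.10, 2.33 and 2.29 in the young mice and 2.78, 2.74 and 3.03 in the aged mice, a difference of 0.61 with a limma adjusted p of 0.197. Cst6 differed by 0.64 (limma adjusted p = 0.323), and by 0.38 without young mouse 3. Cst3 differed by -0.07, with an SD of 0.02 in each group, and by 0.07 with quantile normalization. The groups did not overlap in any of these 3 genes (100%, beside 21.8% of all genes).

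Of the other hydrolases and their activators, 16 of 31 were higher and 15 lower, with a median of 0.02. Smpd1, the acid sphingomyelinase, was 6.33, 6.46 and 6.48 in the young mice and 5.86, 5.91 and 5.87 in the aged mice, a difference of -0.54 with a limma adjusted p of 0.195. Gusb, beta-glucuronidase, differed by 0.48 and Galns, a sulfatase, by -0.27, both with no overlap. With Smpd1, 3 of the 31 did not overlap (9.68%, beside 21.8% of all genes). Psap, the precursor of the saposins that help degrade sphingolipids, is named for its values: it read 5.998, 5.87 and 5.44 in the young mice, 5.78 in aged mouse 1, and 3.87 and 3.94 in aged mice 2 and 3. Its difference was -1.24 (limma adjusted p = 0.342), and without aged mouse 1 it was -1.87 with a limma adjusted p of 0.0336. As for Stbd1, gene and fit were singled out on these values, so that p is no support for a difference.

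In the lysosomal membrane and delivery list, 10 of 14 genes were higher and 4 lower, with a median of 0.09, but 5 of 14 were higher under median scaling and 7 of 14 without aged mouse 1. Lamp1, a main membrane protein of the lysosome, was 8.29, 8.42 and 8.44 in the young mice and 8.13, 8.26 and 7.98 in the aged mice, a difference of -0.26 with no overlap. Tmem192 differed by -0.24, also with no overlap. Cd68, a lysosomal membrane glycoprotein of macrophages, was 1.20, 1.02 and 1.48 in the young mice and 2.61, 1.78 and 2.56 in the aged mice. Its difference was 1.08, with a limma adjusted p of 0.175. With Lamp1 and Tmem192 it made 3 of 14 genes without overlap (21.4%, beside 21.8% of all genes).

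Of the 18 tested genes of the proton pump that acidifies the lysosome (V-ATPase), 14 were higher and 4 lower, with a median of 0.19, and 11 of 18 were higher under median scaling. Atp6ap2, an accessory subunit, was 1.49, 1.39 and 1.67 in the young mice and 2.31, 2.17 and 2.33 in the aged mice, a difference of 0.75 ± 0.16 with a limma adjusted p of 0.143. Atp6v0d1, a subunit of the membrane sector, differed by 0.74, and by 0.36 without young mouse 3, and Atp6v1a, the catalytic subunit, named for its values, by 0.72 (limma adjusted p = 0.190). All 3 aged mice were above all young mice in each of these 3 genes (3 of 18, 16.7%, beside 21.8% of all genes).

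Some markers of other cell types in the muscle also differed between the groups. Of 11 macrophage markers tested, 9 were higher in aged mice, 6 of them without overlap (54.5% of the 11, beside 21.8% of all genes). Cd68 is 1 of the 11. The summed signal of the 11, in multiples of the 75th percentile, was 42.0 to 49.6 in young and 48.8 to 50.05 in aged mice. Its largest terms were Itgam and Csf1r (young log2 means of 4.58 and 3.74), the 2 markers that were lower. Itgam differed by -0.26, and Cd163 was too dim to test. The general macrophage marker Adgre1 differed by 0.64 and Csf1r by -0.05. Of 8 fibroblast markers, 7 were lower in aged mice, 5 of them without overlap (62.5% of the 8, beside 21.8% of all genes). The summed signal of the 8 was 465 to 526 in young and 224 to 358 in aged mice. Its largest term was Dcn (log2 means of 8.43 in young and 7.57 in aged mice), so the sum mostly follows that gene. The summed signal of the 5 neutrophil markers ranged from 1.41 to 1.95 in young and from 17.0 to 25.2 in aged mice. In aged mice its largest terms were S100a9 and S100a8 (aged log2 means of 3.88 and 1.83). These 2 genes passed the test (limma adjusted p = 0.0060 for both). Retnlg, also part of the sum, was higher too, but it passed the filter only through the aged mice (well above background on 0 young and 3 aged arrays). Camp (-0.40) and Elane (-0.31) were lower without overlap, and Ly6g, Ltf, Mpo and Cxcr2 were not tested. All 6 erythrocyte markers were lower, with sums of 592 to 830 in young and 264 to 421 in aged mice. The largest terms of these sums were Hba-a2 and Hba-a1 (young log2 means of 8.99 and 7.50). Of the Schwann cell markers 5 of 8 were lower (62.5%, beside 56.9% of all genes) and 1 of them, Prx, passed the test. Lower means were also found in 6 of 7 adipocyte (85.7%) and 5 of 8 endothelial markers (62.5%), with none passing. Only 1 adipocyte (14.3%) and 1 endothelial marker (12.5%) did not overlap between groups. Both shares were below the 21.8% of all genes. The part of these cells in the differences of Cd68, Lgmn, Ctsk and the other lysosomal genes, which several of them express, was not tested. The summed muscle fibre markers were 4575 to 5425 in young and 3808 to 4889 in aged mice, lowest in aged mouse 1.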

How the data were processed

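The 6 arrays (1 per mouse) shared 1 slide and 1 scan. The authors deposited linear intensities, the processed signal of Agilent Feature Extraction (9.5 per the labels, 11.0.1.1 per the file headers). Their software had subtracted the background, and the arrays had not been scaled to each other. The series matrix held identical intensities. Flagged spots (161 to 212 per array) were left out, log2 signals of a probe's spots were averaged, and the 75th percentile of the array (209 to 310 signal units) was subtracted. Probes were named by unversioned accession through RefSeq GRCm38.p6 (28325 of 55681 probes matched), without coordinates, because its design used mm9. Probes well above background on at least 3 of 6 arrays were kept, a gene was its kept probe with the highest mean (none was saturated), and limma 3.58.1 in R 4.3.3 (lmFit, eBayes, intercept and age) tested 20900 genes with Benjamini-Hochberg adjustment at 0.05. Mice were grouped by their labels. Nothing states that RNA was handled separately per mouse, so p-values measure the spread between these samples. The number of arrays limits the precision.

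The members and lists were chosen with earlier results of these data known, so no list was tested. Named pathway genes were, per list, up to 2 with the largest increase and 2 with the largest decrease among genes without overlap that were well above background on all 6 arrays. Exceptions are named in the text. The alternatives were normexp correction (offset 50, on the median spot signal), quantile and median scaling, the percentile over detected probes, 2 other filters, the mean of probes, probes in place of genes, a mean-variance trend, slide row and replicate number as blocks, and each mouse left out. The fit was tested on simulated data.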

Additional observations from a re-analysis of the deposited data

How the results depend on the processing

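None of the 10 genes passed the threshold in any of the 17 alternatives, 11 of which kept all mice. The count of 53 genes past the threshold over all genes was 8 without a filter on dim probes, 35 with the stricter filter that asks for signal above background on every array, and 1 to 199 with a mouse left out (199 without aged mouse 1, and 1 without aged mouse 3). Same-numbered mice did not deviate together (correlations of -0.06, -0.27 and 0.03 across genes), and the replicate block gave 5 genes, none of the 10. Under median scaling the difference was -0.12 for Map1lc3b, -0.079 for Atg7, -0.12 for Becn1 and -0.076 for Gabarap. With the slide row as a block it was 0.44 for Bnip3, 0.11 for Ulk1, 0.0085 for Psap and -0.77 for Stbd1. Bnip3 was 0.026 with normexp correction and 0.073 as the mean of its probes, and Cst3 was 0.066 with quantile normalization. With 1 mouse left out, differences ranged from -0.12 to 0.10 for Map1lc3b, -0.044 to 0.53 for Gabarapl1, -0.45 to -0.0047 for Bnip3, -0.66 to -0.20 for Ulk1, -0.063 to 0.20 for Atg7 and -0.15 to 0.32 for Becn1. Map1lc3a, Sqstm1, Tfeb and Ctsl kept their sign throughout.

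List medians under median scaling were -0.090 (conjugation), 0.046 (ATG8), -0.064 (fusion), -0.28 (TFEB), -0.23 (proteases), 0.47 (cystatins), -0.13 (other hydrolases), -0.060 (membrane) and 0.047 (V-ATPase). With the slide row they were -0.081 (conjugation), 0.31 (ATG8), 0.019 (proteases), 0.19 (other hydrolases) and 0.053 (membrane). The membrane median was 0.13 with quantile normalization, 0.12 with the percentile over detected probes and 0.071 with the mean of probes. With 1 mouse left out, the medians ran from 0.063 to 0.22 (ATG8), -0.089 to 0.13 (fusion), -0.029 to 0.38 (cargo receptors), -0.063 to 0.098 (induction), -0.14 to 0.0025 (proteases), -0.037 to 0.11 (other hydrolases), 0.38 to 0.67 (cystatins) and -0.0045 to 0.15 (membrane). Median scaling and the percentile over detected probes shift the difference of every gene equally. The median of all genes moved from -0.062 to -0.21 and to -0.028. Counts of list genes above the median of all genes were therefore the same as in the main fit. For the other alternatives the cause was not tested, beyond the number of genes or mice that each leaves. The series matrix, the slide and the scan gave no alternative value, because the matrix was identical and there was 1 slide and 1 scan. With 3 mice per group, the widest interval among the 10 genes was -0.58 to 1.12 (Gabarapl1), and differences within these intervals were not detectable.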
